A study of Mus musculus with 24 samples.

Results

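Of 9850 m6A peaks listed for Dac51-treated mouse melanoma cells, 1191 (12.1%) shared no base on the same strand with any peak listed for Fto-knockdown cells or for control cells. These Dac51-only peaks lay on 1102 genes, and the 3 lists together held 29140 peaks. They were chosen by presence or absence in the authors' peak lists, 1 list per condition, so fold enrichment, width and significance of the peaks are given as a description of what was chosen, without a test. The libraries came from B16-OVA cells, a melanoma line of C57BL/6 background that carries the ovalbumin antigen, kept in puromycin medium. The Dac51 library came from cells with a control hairpin (shNC) after 5 µM Dac51 for 48 h. The shFto library came from cells with a hairpin against Fto in DMSO, and the shNC library from control hairpin cells in DMSO. The labels do not say which shFto line was used, and each condition had 1 antibody library, so no peak comparison has a replicate check. RNA-seq covered 3 shFto and 3 shNC libraries of the same cells without a stated treatment. RNA of Dac51-treated cells and the reads of the antibody and input libraries were not analysed here.

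N6-methyladenosine (m6A) is written onto adenosines of messenger RNA by a METTL3 and METTL14 complex with WTAP, mostly within short GGAC-like sequences, and gathers near stop codons, in 3′ untranslated regions and in long internal exons. FTO and ALKBH5 are the enzymes that remove it, and Dac51 is known from the literature as an inhibitor of FTO. Antibodies against m6A also bind m6Am, a related mark on the first transcribed adenosine beside the cap that FTO can remove too, so a peak at the very start of a transcript can hold either mark.

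Dac51-only peaks lay at transcript starts more often than the peaks they were set beside, with intervals that did not overlap. With 1 library per condition this difference has no test. Any RefSeq start on the strand of the peak counted, also one inside a gene span. At Tssc4, for example, the peak centre was 997 bases from the gene's 5′ end. Of the 1191 peaks, 69 (5.79%, exact 95% interval 4.54 to 7.28%) covered part of the first 50 transcribed bases at a RefSeq start. Among the 8659 other Dac51 peaks 149 did (1.72%, 1.46 to 2.02%). The share was 40 of 2049 (1.95%, 1.40 to 2.65%) for peaks found in the shFto list alone and 16 of 763 (2.10%, 1.20 to 3.38%) for peaks found in the shNC list alone. These Clopper-Pearson intervals cover counting error only, and peaks of 1 list are not independent samples of a condition. Of the 69 peaks, 43 began exactly at the first annotated base. Peak edges often fell 0 or 30 bases from an annotated start, so an exact match does not place a mark on the first base. The windows shown are the first 30 transcribed bases at such starts, for the 10 peaks with the lowest false discovery rates among those beginning at the first base, and for Dusp1 and Clptm1, which hold a GGAC. At Rundc1, peaks on the opposite strand overlapped the Dac51-only peak. They are read 5′ to 3′ on the transcript strand from RefSeq promoters of build GRCm38.p6 (mm10), with the first transcribed base and any GGAC in capitals.
Rundc1 (chr11:101425085-101425114, plus strand): Gggcggcgtttccgggaagatggcgacggt
Bax (chr7:45466869-45466898, minus strand): Agtcctgcggggcggaggccatgttgcggg
Dynll1 (chr5:115300961-115300990, minus strand): Gcgggcgcagggcggggcctagggattagg
Tapbp (chr17:33919478-33919507, plus strand): Caagggggtgggtgcagggcgaggagtggc
Ifitm2 (chr7:140955932-140955961, minus strand): Gcagcagccatcctccagacggggcgattg
Akt1 (chr12:112674247-112674276, minus strand): Gcggggcggggagaaggcgggccggcggcg
Eif4e2 (chr1:87213914-87213943, plus strand): Aaccggaagtagccgggcccttagcgatgg
Lmna (chr3:88503323-88503352, minus strand): Gtagaggagggcctattagagcctctgcct
Tssc4 (chr7:143069368-143069397, plus strand): Gggcgctgaagccacgaaaatctgatcgcc
Hnrnpa2b1 (chr6:51469865-51469894, minus strand): Gttagtggggggaaggttctagaaaagcgg
Dusp1 (chr17:26508443-26508472, minus strand): AgtgaaGGACtggcgggaggaaagcgcggt
Clptm1 (chr7:19665001-19665030, minus strand): GggggcggGGACccggagcaggaagatggc

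An adenosine, the base that carries m6Am, stood first at 19 of the 69 starts (27.5%, exact 95% interval 17.5 to 39.6%), against 44 of 148 starts under other Dac51 peaks (29.7%) and 34.4% of all 32817 RefSeq starts in the table. The 4 letters GGAC stood in the first 50 transcribed bases of 13 of the 69 (18.8%, exact 95% interval 10.4 to 30.1%), beside 23.6% under other Dac51 peaks and 18.8% of all starts. Their reverse complement GTCC, searched as a comparator on the same strand, stood in 17 of the 69 (24.6%, 15.1 to 36.5%), beside 12.8% and 17.4% in the same order. The longer GGACT was in 3 of the 69 (4.35%), against 7.43% under other Dac51 peaks and 5.76% of all starts. Its reverse complement AGTCC was in 7 of the 69 (10.1%, 4.18 to 19.8%), beside 3.38% and 4.87% in the same order. The shares over all starts lay within the intervals for each of these, and the median GC content of the 69 was 64%, against 66% under other Dac51 peaks and 56% over all starts. A match is a description of the letters in the window, and the start used by these cells was not measured.

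**Figure D1:**
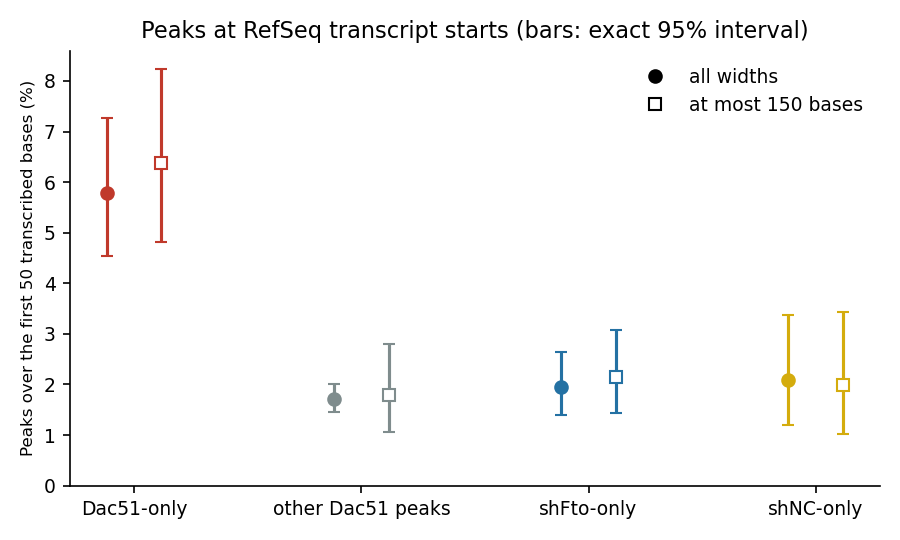
Share of peaks, in percent, that cover part of the first 50 transcribed bases at a RefSeq start. The sets are the Dac51-only, the other Dac51, the shFto-only and the shNC-only peaks. Filled circles are all peaks and open squares those of at most 150 bases, with exact 95% intervals as bars; the Dac51-only shares of 5.79% and 6.38% stand above all others.

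The excess at starts was also seen among narrow peaks, which are the commoner kind among the Dac51-only peaks. With peaks of at most 150 bases alone, 54 of 847 Dac51-only peaks (6.38%) lay at a start, against 18 of 1008 other Dac51 peaks (1.79%), 29 of 1348 shFto-only (2.15%) and 12 of 605 shNC-only peaks (1.98%). The 69 start peaks had a median fold enrichment of 2.39 (quartiles 1.73 to 3.75, range 1.24 to 24.6) and a median of 91 covered bases, and the remaining Dac51-only peaks had a median fold of 2.32. Of their 69 genes, 29 carried no peak anywhere in the shFto or shNC list.

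The genes with a start peak shown had varied roles, which were not counted by function. Bax, which permeabilises the mitochondrial outer membrane in apoptosis, had a fold enrichment of 2.49 over 121 bases and no other peak in any list. Tapbp encodes tapasin, which bridges MHC class I molecules to the peptide transporter, and had a fold of 24.6 over 150 bases, again with no other peak. The kinase gene Akt1 (fold 1.91), and Hnrnpa2b1 (1.67), an RNA-binding protein described as an m6A reader, were likewise listed for Dac51 alone. The cap-binding protein gene Eif4e2 had a fold of 2.00, the dynein light chain gene Dynll1 2.12, the interferon-induced gene Ifitm2 2.23, the nuclear lamin gene Lmna 3.21 and Clptm1 1.37. Dusp1, a phosphatase of MAP kinases, had a start peak of fold 3.91 beside a peak further downstream that was shared by the lists, with folds of 11.5 in the Dac51, 8.14 in the shFto and 6.19 in the shNC list.

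Along whole gene spans, most Dac51-only peaks lay towards the 3′ end, with a smaller group at the 5′ end. Of 1187 placed peaks, 144 (12.1%, exact 95% interval 10.3 to 14.1%) had their centre in the first 10% of the gene, against 468 (5.42%) of the other Dac51 peaks, 123 (6.03%) of the shFto-only and 106 (13.9%) of the shNC-only peaks. The shNC-only peaks thus had as high a share there. In the last 10% lay 530 (44.7%), against 44.6% of the other Dac51, 50.6% of the shFto-only and 38.5% of the shNC-only peaks. Spans include introns, and exon, coding and untranslated parts were not assigned here. Of the placed peaks, 1164 (98.1%) were on protein-coding genes and 18 on long noncoding RNAs.

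**Figure D2:**
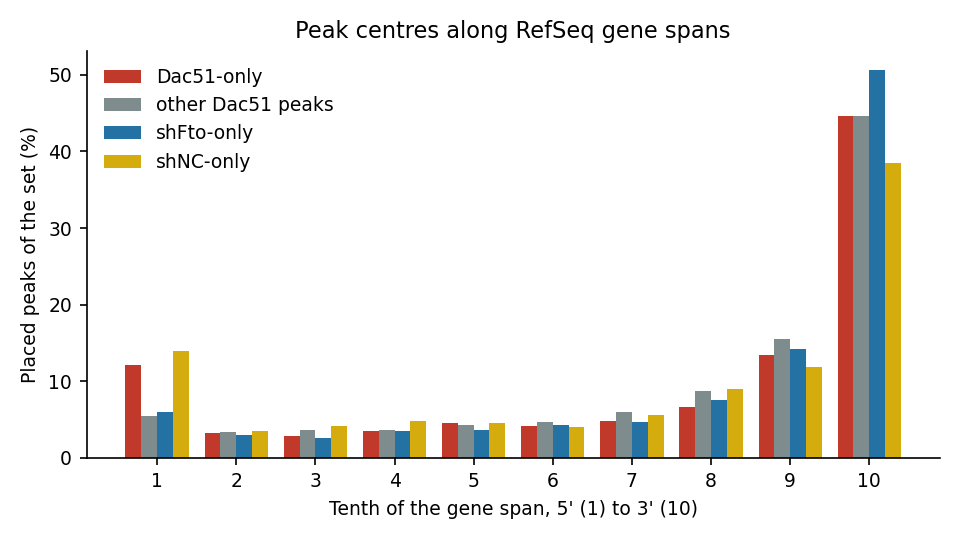
Share of placed peaks, in percent, by which 10% step of the RefSeq gene span holds the peak centre, from the 5′ end (1) to the 3′ end (10), for the 4 peak sets. The last step is highest in each set, and in the first step the Dac51-only bar (12.1%) and the shNC-only bar (13.9%) stand above the others.

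The Dac51-only peaks were mostly weak and narrow, as the choice favours. Their fold enrichment, the authors' ratio of antibody over input reads, had a median of 2.33 (quartiles 1.81 to 3.69, range 1.1 to 60.5), against 6.53 for the other Dac51 peaks, 3.06 for shFto-only and 2.7 for shNC-only peaks. They covered a median of 120 bases, against 327, 121 and 91 in the same order. The log10 of the false discovery rate had a median of -3.3, against -26.3, -3.03 and -2.5. Folds under 2 were found for 421 (35.3%) and folds of 10 or more for 101 (8.48%), against 7.25% and 34.8% of the other Dac51 peaks.

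**Figure D3:**
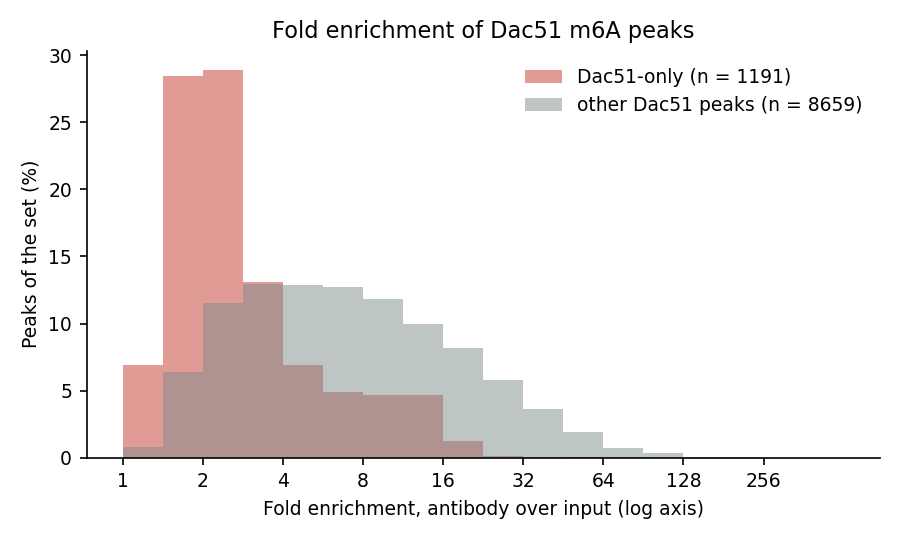
Distribution of fold enrichment (antibody over input, log axis) as the percent of each set, for the 1191 Dac51-only peaks and the 8659 other Dac51 peaks. The Dac51-only peaks crowd between 1.4 and 4, with a median of 2.33 against 6.53.

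The edge of the choice was narrow in bases. The nearest Dac51-only peak to a peak of another list was 15 bases away, on Gm37013, followed by Gm20605 at 27 and 2610306M01Rik at 28 bases. Just outside, peaks of 1500004A13Rik, 2510039O18Rik and A430033K04Rik were left out because 1 base was covered. The weakest members by false discovery rate were on Asph (log10 value -1.3, fold 5.63), Iigp1 (-1.42) and the kinase chaperone gene Cdc37 (-1.46, fold 1.21).

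Most of the genes with these peaks also had a peak in the shFto or shNC list, at any distance on the gene. Of the 1102 genes, 725 (65.8%, exact 95% interval 62.9 to 68.6%) had a peak elsewhere in the shFto or shNC list, of which 576 had one in both, 112 in the shFto list alone and 37 in the shNC list alone. The remaining 377 genes (34.2%) had none. The gap to the nearest shFto or shNC peak on the same strand had a median of 3918 bp, with 116 peaks (9.74%) within 100 bp and 386 (32.4%) within 500 bp. Pairs on opposite strands were few, with 24 peaks overlapping another Dac51-only peak there.

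Most genes had 1 Dac51-only peak (1022 of 1102), 72 had 2, 7 had 3 and 1 had 4. The gene with 4 was Zfp521, a zinc finger transcription factor, with folds of 6.69, 9.86, 16.2 and 10.1. In the same order, their log10 false discovery rates were -1.84, -1.49, -3.3 and -5.81. The gaps to the nearest shFto or shNC peak were 29, 148, 118 and 596 bp. The genes with 3 were Ahnak, a giant scaffold protein gene (folds 2.01, 2.23 and 1.97), Med13l of the Mediator kinase module (1.59, 3.78 and 3.05), Ralgps1, an exchange factor for Ral (4.05, 6.16 and 8.31), the RNA-binding protein genes Rbm33 (1.37, 1.42 and 2.33) and Sltm (1.45, 1.37 and 1.48), Zfhx4, a homeobox and zinc finger factor (6.69, 8.21 and 6.16), and Lrrc58 (1.5, 1.46 and 1.66). Among these genes, Sltm alone had no peak in the other lists.

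The peaks with the lowest false discovery rates included several of small fold on genes with many reads. Nedd4, a ubiquitin ligase gene, led with a log10 value of -32.9 at a fold of 1.54, over 389 bases in 6 blocks at chr9:72736922-72742727 (mm10). The initiation factor subunit genes Eif3c (-22.9, fold 1.49) and Eif3b (-18.0, fold 1.39) were of the same kind, and neither had a peak in the other lists. Larger folds came with Ankhd1 (-27.9, fold 16.5), Ypel2 (-18.7, fold 9.62), Rundc1 (-23.1, fold 6.27) and Dhdds, a gene of dolichol synthesis (-20.6, fold 3.97). Aldh1l2, a mitochondrial folate enzyme gene (-23.3, fold 2.53), and Cnot7, a deadenylase gene of the CCR4-NOT complex (-18.7, fold 2.90), completed the protein-coding genes of this group. The last was Mir6236 (-19.2, fold 2.42), whose mature sequence in RefSeq (chr9:110281353-110281371, plus strand) is shown because the peak covers it, with seed bases 2 to 8 in capitals.
mmu-miR-6236: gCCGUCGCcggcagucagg
A peak does not tell the small RNA from a longer RNA at this place.

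Several of the largest folds were on genes with few RNA reads, among them Pcdh17, Nr4a2, Rab7b and Mgat3. Pcdh17, a protocadherin adhesion gene, reached 60.5 over 451 bases at chr14:84447552-84448002, 179 bp from an shNC peak. A second Dac51-only peak of Pcdh17 had a fold of 6.34, while its strongest shared Dac51 peak stood at 167. After Tapbp came Tssc4 (23.2), then A230020J21Rik and Mfsd7b, whose peaks of 21.8 each lay at the same place on opposite strands. Nr4a2, an orphan nuclear receptor gene, and Rab7b, a small GTPase gene, stood at 21.1 each, the lipoprotein receptor gene Lrp8 at 20.4, Ccsap at 19.4 and the glycosyltransferase gene Mgat3 at 17.6. Nr4a2 had no other peak in any list.

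Of the 7163 genes with a peak in any list, 1102 (15.4%) had a Dac51-only peak, and gene groups are set beside that share. The groups were written with earlier results of these data known, so their shares are descriptions. Chromatin and histone modifiers had such a peak on 18 of 47 marked genes (38.3%), every one of which also had peaks in both other lists. Their folds included 7.74 for Setd1b and 4.17 for Kmt2a, histone H3K4 methyltransferase genes, 12.7 for the remodeller gene Chd7 and 2.98 for Tet3, which oxidises 5-methylcytosine. Kmt2c, a gene of the same kind as Kmt2a, had a fold of 3.87. The Chd7 peak covered 61 bases at a log10 false discovery rate of -2.28, beside -6.19 for Setd1b and -5.87 for Kmt2a. The chromatin genes had a median of 2 shared Dac51 peaks, beside 1 over all genes with a peak. The part of peak number in their share was not tested. Among all genes with 4 or more shared Dac51 peaks, 75 of 282 (26.6%) had a Dac51-only peak, and 7 of the 14 chromatin genes of that kind did. Over all genes the share was 28.7% with no shared Dac51 peak, 9.48% with 1, 10.7% with 2 and 17.4% with 3.

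MYC network and p53 pathway genes had Dac51-only peaks on 7 of 18 marked genes (38.9%). Cdkn1a, the p21 inhibitor of cyclin-dependent kinases and a p53 target, had a fold of 12.7 for a peak that reached into its first 50 transcribed bases. Neither Cdkn1a nor Bax had a peak in the other lists. The peak of Myc was small, with a fold of 1.62, while its main peak had folds of 40.3 in the Dac51, 35.0 in the shFto and 14.6 in the shNC list. Mxd1, a MYC antagonist gene, had a fold of 2.40. The others were Mxd4 (2.07), Mlxip (2.39) and Ppm1d (2.04), a phosphatase gene that acts on p53 signalling.

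A list of antigen presentation genes that also held Cd274, the gene of the checkpoint ligand PD-L1, had 3 of 11. Cd274 itself had a fold of 9.15 over 210 bases at chr19:29373572-29373781. A separate Cd274 peak was shared, with folds of 8.45 in the Dac51, 10.8 in the shFto and 3.56 in the shNC list. Nlrc5, an activator of MHC class I transcription, had a fold of 11.3 and no other peak. That peak covered 60 bases at a log10 false discovery rate of -1.88. Mitosis and replication genes had 5 of 16. Folds were 1.55 for Pcna, 1.45 and 1.83 for the kinesin genes Kif11 and Cenpe, and 1.34 for the chromosomal passenger gene Incenp. Ccne2, a cyclin gene, had a fold of 7.04 at a log10 false discovery rate of -2.02. Ubiquitin ligases and deubiquitinases had 7 of 28, MAPK and receptor kinase signalling 9 of 41 (22.0%), and WNT, TGF-beta, Hippo and Notch signalling 8 of 41 (19.5%). Ribosomal protein genes had 2 of 8 (Rplp0 1.66 and Rpl5 1.47), and respiratory chain genes 2 of 3 (Atp5b 2.48 and Uqcrc2 1.77).

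The remaining groups stood between 0% and 16.7%, beside 15.4% over all genes with a peak. Unfolded protein response and ATF4 genes had 3 of 19, among them Slc7a11, the cystine transporter gene (3.52), Atf5 (1.45) and Ppp1r15b (1.51), a subunit of the phosphatase that acts on eIF2alpha. Glycolysis and lactate genes had 2 of 12, Gapdh (1.54) and Hk1 (1.2), and m6A factor genes 2 of 14, Hnrnpa2b1 and the writer subunit gene Wtap (1.63). Melanocyte and pigment genes had 1 of 14, Pmel (4.08), hypoxia genes 1 of 11, the oxygen sensor gene Egln2 (2.46), and AP-1 and C/EBP transcription factors 0 of 13.

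RNA-seq gave a measure outside the peak calls, in shFto and shNC cells, though both conditions also set the peak choice. In bulk RNA, fewer cells of a type and less RNA per cell cannot be told apart. Libraries held 11152404 to 19665589 counts. Fto, the target of the hairpin, gave 31.7, 33.5 and 28.3 CPM (counts scaled to library size, with TMM factors) in shFto and 107, 108 and 91.8 CPM in shNC libraries. The melanoma label was met by 19 of 21 pigment genes that passed the expression filter, with a summed 20426 to 26729 CPM per library, whereas 2 of 15 immune markers passed (Coro1a and Itgax), with a summed 1.47 to 1.97 CPM in shFto and 0.14 to 0.58 CPM in shNC libraries. Of 15 fibroblast, endothelial and epithelial markers 6 passed, with a summed 7.85 to 10.5 CPM in shFto and 13.8 to 17.6 CPM in shNC libraries, and 3 fell. The part of either marker list in the RNA changes was not tested. The labels do not say that replicate libraries came from separate cultures, so p-values measure the spread between libraries, which may be technical.

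Genes with a Dac51-only peak passed the test for a change with Fto knockdown about as often as all genes tested. Of the 1102 genes, 1077 passed the filter, and 371 (34.4%) changed at an adjusted p under 0.05 (edgeR quasi-likelihood test, Benjamini-Hochberg), against 32.8% of all 11718 genes tested. Of these, 186 (17.3%) rose, against 15.9% of all, and 185 (17.2%) fell, against 16.9%. The median log2 fold change was 0.00. Changes of 2-fold or more numbered 19 of the 1077 (1.76%), near the 2.05% (98 of 4776) of genes with other Dac51 peaks alone. Over all 11718 genes the share was 3.25% (381), at a median of 35.8 CPM, against 54.8 CPM for the genes with a Dac51-only peak. The part of read level in these shares was not tested. When libraries were scaled by their totals and not by TMM, 62.7% of these calls were rises, against 50.1% with TMM, and over all genes 59.96% against 48.5%. Without shFto replicate 1 the count fell to 223 of 1080 genes, and the number of calls over all genes is not given for that fit. The shFto and shNC libraries did not overlap for 504 of the genes (46.8%), against 45.1% of all. Of the 69 genes with a start peak, 10 rose and 13 fell. Of 360 tested genes with no shFto or shNC peak, 56 rose and 66 fell.

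The genes did give more reads than other genes with peaks. Their median was 54.8 CPM (quartiles 21.8 to 118), against 40.02 CPM for genes with other Dac51 peaks alone and 35.8 CPM over all tested genes. Genes with a start peak had a median of 100.2 CPM. CPM is not divided by transcript length, so it ranks genes by reads and not by molecules. The share of marked genes that had a Dac51-only peak was 11.7%, 12.4%, 14.2%, 16.9% and 21.6% from the lowest to the highest of 5 equal groups of tested genes by CPM. The fold of the peaks ran the other way, with a median of 6.69 for 150 peaks on genes under 10 CPM, 2.44 for 664 on genes of 10 to 100 CPM and 1.75 for 352 on genes of 100 CPM or more. The part of read depth in the peak choice was not tested.

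**Figure D4:**
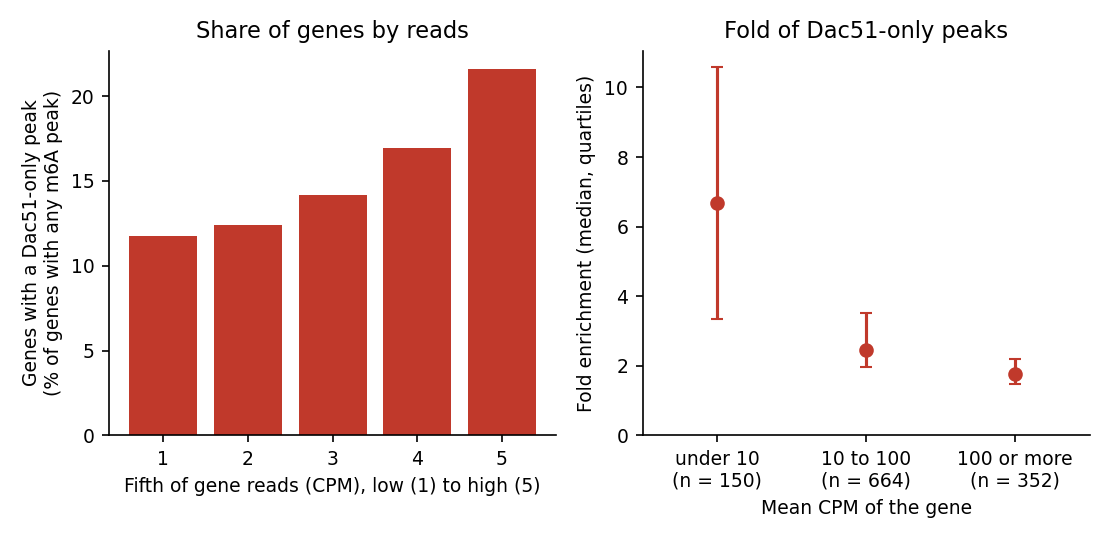
Left, genes with a Dac51-only peak as a percent of the tested genes with any m6A peak, by 5 equal groups of mean CPM, which runs from 11.7% to 21.6%. Right, fold enrichment of Dac51-only peaks by mean CPM of the gene (points, medians; bars, quartiles), with medians of 6.69, 2.44 and 1.75.

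Among genes whose peaks were all in the Dac51 list, the largest rise was that of Slc7a11, which supplies cystine for glutathione. It gave 24.0, 22.2 and 21.8 CPM in shFto and 6.00, 5.69 and 3.72 CPM in shNC libraries. The groups did not overlap, and the log2 fold change was 2.14 (SE 0.167, edgeR adjusted p = 1.45e-08). Cdk2, a cell cycle kinase gene, gave 833, 862 and 851 CPM in shFto and 497, 502 and 529 CPM in shNC libraries. All 3 shFto values stood above the shNC values (log2 fold change 0.74, SE 0.0794, edgeR adjusted p = 1.42e-06). Aldh1l2 gave 65.7, 56.1 and 61.0 CPM in shFto and 38.0, 44.1 and 39.4 CPM in shNC libraries. It too rose (0.59). The other rises were Elmod2 (0.78), a GTPase-activating protein gene for ARL2, Nbeal1 (0.74), Yipf6 (0.65), Arfip1 (0.59), which binds ARF and RAC1, and D6Wsu163e (0.54).

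The largest fall was that of the collagen gene Col16a1. It gave 8.94, 8.81 and 10.2 CPM in shFto and 23.5, 22.8 and 21.5 CPM in shNC libraries. The groups were apart, with a log2 fold change of -1.27 (SE 0.135, edgeR adjusted p = 1.13e-06). Timm8b, a chaperone gene of the mitochondrial intermembrane space, gave 21.9, 22.2 and 22.1 CPM in shFto and 45.0, 46.1 and 63.9 CPM in shNC libraries. The shNC replicate 3 was higher than the other two, and the change was -1.23 (SE 0.125, edgeR adjusted p = 7.26e-07). Cadm4, a cell adhesion gene, gave 145, 146 and 159 CPM in shFto and 265, 255 and 270 CPM in shNC libraries. It fell by 0.81 on the log2 scale. The other falls were the acyl-CoA thioesterase gene Acot1 (-1.07), the axonemal dynein gene Dnaic2 (-0.71), the histone gene Hist1h2bc (-0.69), the phosphoglycolate phosphatase gene Pgp (-0.69) and Mrpl54 (-0.68) of the mitochondrial ribosome. Acot1 and Hist1h2bc have near-identical relatives, so their counts are uncertain.

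**Figure D5:**
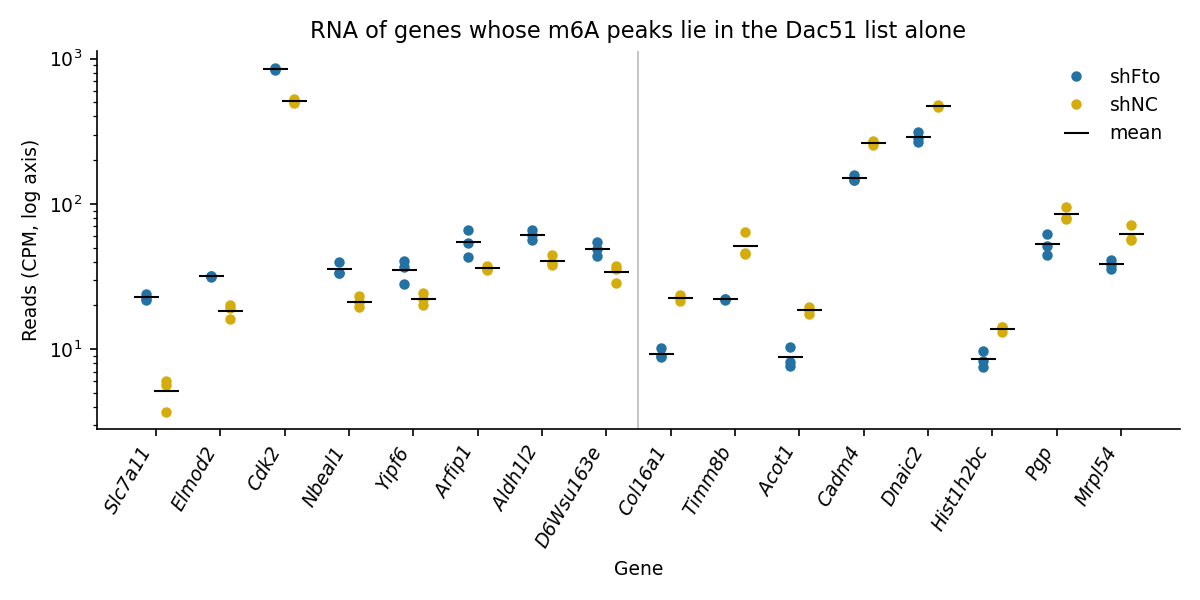
CPM (log axis) in each shFto and shNC library, with group means as bars, for the 8 largest rises (left of the line) and 8 largest falls among genes whose m6A peaks were all in the Dac51 list. The groups are apart for each gene, with Slc7a11 the widest rise and Col16a1 the widest fall.

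Of the 8 genes with 3 or more Dac51-only peaks, 2 fell and the others did not pass. Zfp521 gave 4.05, 3.40 and 3.90 CPM in shFto and 14.9, 16.8 and 9.83 CPM in shNC libraries. It fell by 1.86 on the log2 scale (SE 0.206, edgeR adjusted p = 2.00e-06). Ahnak fell by 0.89. The other genes, Med13l, Ralgps1, Rbm33, Sltm, Zfhx4 and Lrrc58, had log2 fold changes of -0.12 to 0.23 (edgeR adjusted p of 0.0644 to 0.993). Genes with the largest folds went both ways. Tapbp gave 35.0, 39.7 and 36.7 CPM in shFto and 26.2, 29.6 and 25.4 CPM in shNC libraries. It rose (log2 fold change 0.45, SE 0.107, edgeR adjusted p = 0.00325). Nr4a2 fell by 0.77 and Lrp8 rose by 0.27, whereas Pcdh17 (-0.17, edgeR adjusted p = 0.451) and Tssc4 (0.15, edgeR adjusted p = 0.319) did not pass. Rab7b gave at most 0.17 CPM in shFto libraries and 0.77 to 0.84 CPM in shNC libraries, and fell (edgeR adjusted p = 0.00621). Nedd4 rose by 0.24, Eif3b fell by 0.34 and Eif3c did not pass (-0.01, edgeR adjusted p = 0.917).

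Over all 11718 genes tested, 15.9% rose and 16.9% fell, and the group counts are set beside these shares. By group, the glycolysis and ribosomal protein genes with a Dac51-only peak fell. Gapdh (-0.59), Hk1 (-0.59), Rplp0 (-0.63) and Rpl5 (-0.30) all passed the test. In those groups, 15 of 28 glycolysis genes fell and 4 rose (11 and 4 by DESeq2; median log2 fold change -0.35), and 27 of 36 ribosomal protein genes fell and 0 rose by edgeR (0 also at an unadjusted p under 0.05 and by DESeq2; median -0.43), beside a median of 0.00 over all genes tested. Of the 18 chromatin genes, 1 rose (Kmt2c, 0.26) and 6 fell, among them Chd7 (-0.66), Kmt2b (-0.35) and Tet3 (-0.26), against 8 rises and 13 falls among the 54 tested genes of that group. Of the 7 MYC and p53 genes, 0 passed the edgeR test and 0 DESeq2, with 1 at an unadjusted edgeR p under 0.05. The log2 fold change was -0.05 for Bax, 0.07 for Cdkn1a and -0.10 for Myc (edgeR adjusted p of 0.744, 0.597 and 0.372). Cd274 gave 8.68, 8.63 and 7.65 CPM in shFto and 6.61, 7.26 and 4.43 CPM in shNC libraries. The groups were apart, but the change of 0.44 did not pass (SE 0.200, edgeR adjusted p = 0.0981). Nlrc5 fell by 1.01, and of the stress genes Atf5 rose by 0.87. Of the 7 ubiquitin genes 3 rose, with Usp9x at 0.41, and 10 of the 32 tested genes of that group rose. Of the 9 kinase signalling genes 3 rose, with Pik3ca at 0.42 and Sos1 at 0.40, and 1 fell, Akt1 at -0.29, while 16 of the 48 tested genes of that group rose and 7 fell. Pmel rose by 0.36, as did 12 of the 19 tested pigment genes.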

How the data were processed

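Polyadenylated RNA was broken to about 100 nucleotides and enriched with an m6A antibody kit, and libraries were made with a stranded kit, as the labels' protocols state. Build mm10, STAR 2.7.0f, Bowtie2 2.3.5 and Trim Galore 0.6.0 stand in the submitters' processing notes without roles. The counting tool, its strand setting and the peak thresholds are not given in the sources used here. Overlapping and antisense genes are therefore uncertain. The authors deposited, per the file headers, exomePeak lists with 1 row per peak: a fold ratio of antibody to input reads, log10 scores and a p-value, the scores being those of the p-value and of its false discovery rate, and exon blocks. They deposited raw counts per gene for RNA-seq.

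A Dac51 peak was a member if none of its block bases was shared, on its strand, with a shFto or shNC peak. The same step gave the shFto-only and shNC-only peaks. Gene spans and starts came from RefSeq (GRCm38.p6), and no genome was used. Counts were fitted over all genes with edgeR 4.0.16 in R 4.3.3 (TMM, default filter, quasi-likelihood, Benjamini-Hochberg, threshold 0.05), with DESeq2 1.42.0 as an alternative. Simulated data had 200 of 11718 genes changed and a common dispersion for all genes. On them the shFto against shNC fit recovered 96% of 2-fold and 96% of 4-fold changes, and 5.88% of calls were false. These rates need not hold for the real counts, where 3841 genes were called. Python 3.11.15, pandas 2.3.3, NumPy 2.4.6, SciPy 1.17.1 and Matplotlib 3.10.9 did the rest.

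Genes named are the 10 peaks with the lowest false discovery rate, the 10 with the largest fold, the genes with most members, up to 4 genes per list by false discovery rate, the 8 largest rises and 8 largest falls among genes with no shFto or shNC peak (at least 10 CPM, adjusted p under 0.05, groups apart; predicted and Rik symbols left out), and the peaks nearest the overlap rule. Start windows, and other genes of the lists, were chosen after their values were seen. Members and gene lists were chosen with earlier results of these data known. A gene that the rule names is not reported here.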

Additional observations from a re-analysis of the deposited data

How the results depend on the processing

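The 1191 peaks numbered 795 to 1478 under other overlap, list size and strand settings. Counting a Dac51 peak as shared only where 50% of its bases were covered gave a median fold of 2.435 and 71.8% of genes with a peak elsewhere. Leaving out peaks within 100 bp of another list gave 62.3% of genes. Asking for a log10 false discovery rate of -3 or less in the Dac51 list left 695 peaks, and in every list it gave a median fold of 2.58 and 73.5% of genes. A fold of at least 4 left 270 peaks with a median of 7.74. Lists cut to equal size gave 2.62 and 74.97%. The share at starts stayed within its interval under each setting, at 4.94 to 7.19%.

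Of the RNA counts, genes with no shFto or shNC peak gave 122 changes of 360 tested (33.9%), 56 rises and 66 falls. That share stood beside 34.4% for all genes with a Dac51-only peak and 32.8% over all genes tested. With 1 replicate left out, calls ran from 223 to 428, rises from 112 to 215, falls from 111 to 213 and the median level from 54.0 to 55.7 CPM. The lowest counts came without shFto replicate 1. Same-numbered replicates did not pair (correlations 0.01, 0.04 and -0.02), and a replicate block gave 376 calls, 196 rises and 180 falls. DESeq2 gave 373. The number of calls over all genes is not given for the fits with 1 replicate left out, the replicate block or DESeq2. Whether these counts moved with those over all genes was therefore not tested. The 16 genes named for their RNA change kept direction and call in all 160 alternative values. The depth of the m6A libraries is unknown, and its part in which peaks were listed was not tested.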

Other observations

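Some Dac51-only peaks lay over small RNA genes. Besides Mir6236, one peak covered the mature sequence of Mir703 (fold 2.44), and one on Akt1s1, an inhibitor gene of mTORC1, reached into Mir707 (fold 2.15). Of the 1191 peaks, 686 (57.6%) were on the plus strand, against 51.9% of the other Dac51, 58.0% of the shFto-only and 50.5% of the shNC-only peaks. Genes with a numbered Zfp symbol, mostly zinc finger genes, made up 34 of the 1102 genes (3.09%), beside 288 of the 7163 genes with any peak (4.02%).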
